A study of Mus musculus with 18 samples.

Results

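Testes taken from busulfan-treated mice and cultured with 50 μg/mL AOS (BA50, 3 samples) were compared with testes from busulfan-treated mice cultured without AOS (B0, 3 samples). These are 6 of the 18 RNA-seq samples of the study, chosen by their labels, and 14772 of the 22657 genes in the table had at least 1 FPKM in at least 3 of the 6 samples and were tested. FPKM divides the reads of a gene by its length and by the size of the library, so levels of different genes can be set side by side. AOS are alginate oligosaccharides, short sugar chains cut from the alginate of brown algae. Every B0 and BA50 sample came from ICR mice given busulfan once, at 40 μg per g body weight and 3 weeks of age, and the testes were taken 2 weeks later and kept for 48 h at 37 °C in medium with 10% serum. A0 and A50 were testes of age-matched mice without busulfan, cultured with 0 or 50 μg/mL AOS, and BA10 were testes after busulfan with 10 μg/mL AOS. The methods give 6 testes per treatment and 3 repeats and do not say whether a sample is a pool or a single animal, so p-values measure the spread between samples. The comparison asks which genes a high concentration of AOS changes within damaged testis tissue, away from the gut and the blood.

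Busulfan is an alkylating drug that crosslinks DNA and kills dividing germ cells, above all spermatogonia, while Sertoli, Leydig and vascular cells persist. Sperm form in waves, from spermatogonia through meiotic spermatocytes to spermatids, which build the acrosome and the tail and replace their histones. A cell population lost early in this series is missed later in the more mature stages, so the mixture of stages in a testis shifts with the time after the drug. Whole tissue was sequenced, and fewer cells of a type and less RNA per cell cannot be told apart.

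The tissue carried the markers of a testis. The germ cell gene Ddx4 had 29.1 to 55.2 FPKM in B0 and 43.5 to 80.5 in BA50, the Sertoli gene Sox9 had 13.2 to 23.5 over the 6 samples, the Leydig hormone gene Insl3 had 318 to 840, and the smooth muscle actin gene Acta2 had 37.1 to 98.7. The androgen synthesis gene Cyp17a1 was low, at 2.88 to 3.94. Across genes on the log2(FPKM + 1) scale, the first BA50 sample lay closer to the first B0 sample (Pearson's r = 0.983) than to the other BA50 samples (r = 0.940 and 0.958), and the second BA50 sample had the lowest r with samples 1 and 3 of B0 (0.911 for both). Same-numbered B0 and BA50 samples also deviated together from their group means, most weakly for number 3. The read depth is unknown.

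In limma with all 18 samples in one fit, 1 gene was higher in BA50 than in B0 (0.00677% of the genes tested) and 14 were lower (0.0948%) at a Benjamini-Hochberg adjusted p under 0.05. At an unadjusted p under 0.05 there were 1950 higher and 1769 lower genes. The 3 BA50 samples lay above every B0 sample in 1682 genes (11.4%) and below every B0 sample in 2047 genes (13.9%). Of the genes tested, 89 passed the filter through a single group, with the other group under 1 FPKM throughout. They included 2 fat cell genes and 1 gene each of the muscle, duct, mesothelium and undifferentiated spermatogonia lists. Of the 14 genes called lower, 7 (Krt7, Car3, Cidec, Elf3, Orm1, Hoxa9 and Car4) were under 1 FPKM in every BA50 sample and were admitted by B0, the group in which they were high, so their calls are not independent of the filter. The median log2 change of all genes tested was -0.05, and 56.0% of them had a negative log2 change. These shares are the background for the lists, in which "all above" and "all below" count genes whose 3 BA50 samples lay above or below every B0 sample. An exact two-sided permutation test of 3 against 3 samples has 20 divisions and cannot give a p below 0.1, the value each of the 38 genes with the largest or best-supported changes reached. The genes with the largest changes were picked only where the groups did not overlap, which fixes that value in advance, so it adds no support for them.

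These counts depended on single samples. Without the first BA50 sample the same fit called 745 genes higher (5.04%) and 579 lower (3.92%), and all 15 genes called with every sample were among them. Without the second BA50 sample it called 0 genes in either direction. Of the BA50 samples, the first had the highest r with any B0 sample (0.983). Calls made without that sample are therefore not separate support for any list. With the replicate number as a block 4 genes were lower and 0 higher, and a fit of the 6 samples alone called 0, with a smallest adjusted p of 0.0745.

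Genes of fat cells were among the called genes that fell furthest. Cfd encodes adipsin, a complement protease that fat cells secrete, and had 114, 18.2 and 42.5 FPKM in the B0 samples against 0.03, 0.44 and 2.40 in the BA50 samples. The means were 58.1 ± 49.6 and 0.957 ± 1.27 FPKM (SD, n = 3), a log2 change of -4.74 with a standard error of 0.66 (limma adjusted p = 0.0114). Retn, the gene of the fat hormone resistin, had 78.1, 8.99 and 15.6 FPKM in B0 and 0.40, 1.25 and 1.79 in BA50 (log2 change -3.52, limma adjusted p = 0.0209). Cidec, which coats lipid droplets, had 17.2, 2.47 and 3.98 FPKM in B0 and no more than 0.35 in BA50 (log2 change -2.57, limma adjusted p = 0.0334). In each of the 3 genes the first B0 sample was highest and the groups did not overlap. Car3, a carbonic anhydrase abundant in fat and skeletal muscle, was also highest in that sample, with 83.2, 11.1 and 9.25 FPKM against 0.08, 0.49 and 0.63 in BA50 (log2 change -3.99, limma adjusted p = 0.0114). With the replicate block Car3 kept its call (adjusted p = 0.0390), while Cfd (0.0503), Retn (0.0503) and Cidec (0.0643) did not.

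Fat cell markers were therefore read as a whole list. Of 18 fat cell genes 15 were tested, with a median log2 change of -0.66. Of the 15, 6 had BA50 values all below B0 (beside 13.9% of all genes) and 3 all above (beside 11.4%). Calls were made for 3 of them, all lower, beside 0.0948% of all genes. The summed level of the list was 422 to 1159 FPKM in B0, 359 to 476 in BA50, 313 to 431 in BA10 and 219 to 271 in A0. Fabp4, the fatty acid carrier of fat cells and capillaries, had 567, 159 and 200 FPKM in B0 and 96.8, 128 and 91.9 in BA50 (limma adjusted p = 0.0983). Plin1, which seals the lipid droplet, had 8.76, 1.21 and 3.27 FPKM in B0 and 0.45 to 0.80 in BA50 (adjusted p = 0.0963 by limma). Cidec and Plin1, 2 of the 6 genes all below, passed the filter through B0 alone, the group in which they were high. Their places among the 6, and the p-values of both, are therefore not independent of the filter. The fat hormone gene Adipoq overlapped, at 19.3, 6.21 and 5.46 FPKM in B0 and 3.05, 7.13 and 6.24 in BA50. Acsl1 and Aqp7, which testis cells also express, were the reverse, at 72.2 to 115 and 34.5 to 63.6 FPKM against 46.4 to 58.1 and 22.4 to 30.2 in B0 (adjusted p = 0.152 and 0.169 by limma). Of 14 skeletal muscle genes, 2 were tested, and the defining genes Ckm and Acta1 did not pass 0.17 FPKM in any of the 6 samples.

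Elf3 and keratin genes were also called. Elf3, an epithelial transcription factor, had 1.99, 4.08 and 2.69 FPKM in B0 and 0.41, 0.70 and 0.70 in BA50 (log2 change -1.26, limma adjusted p = 0.0466, with the replicate block 0.0921). Its highest value lay in the second B0 sample, as did those of the keratin genes Krt7, Krt8 and Krt18, which were lower by 2.77 to 3.37 on the log2 scale and kept their calls with the replicate block (adjusted p = 0.0166 to 0.0382). Genes of the duct list were not called. Crisp1, an epididymal secretory protein, had 1.83, 37.4 and 2.80 FPKM in B0 and at most 0.17 in BA50 (limma adjusted p = 0.0963). It passed the filter through B0 alone, the group in which it was high. Wfdc2, a protease inhibitor of duct epithelia, had 7.14, 47.4 and 26.5 FPKM in B0 and 2.05, 0.65 and 1.38 in BA50, and Spink8, another protease inhibitor, had 4.46, 31.1 and 34.4 against 3.10, 3.26 and 2.23. Samples 2 and 3 of B0 had the higher values, and neither gene was called (limma adjusted p = 0.0795 and 0.112).

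Of 20 genes of the epididymis and efferent ducts, 17 were matched and 4 tested, 3 of them with BA50 all below B0 and 0 called. The summed level of the list was 26.6 to 153 FPKM in B0, 17.6 to 27.3 in BA50 and 26.9 to 50.0 in A0, and the epididymal lipocalin Lcn5 was listed at 0 in all 6 samples. Of 14 mesothelium genes without keratins 9 were tested, 1 of them admitted through a single group. The median log2 change was -0.77, with 3 (33.3%, beside 13.9% of all genes) all below and 0 all above. Msln, the surface protein mesothelin, had 6.56, 2.44 and 3.65 FPKM in B0 and 1.41, 0.29 and 0.13 in BA50, and Slpi, an antiprotease of mucosal surfaces, had 20.01, 30.1 and 16.1 against 4.86, 3.09 and 5.11 (adjusted p = 0.0967 and 0.0693 by limma). The mesothelial summed level was 152 to 200 FPKM in B0 and 131 to 184 in BA50. The part of fat, duct and covering tissue in the called genes was not tested.

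The remaining lower genes were Fhl1, Cdo1, Car4, Orm1 and Hoxa9, and a gene model added by the sequencing provider that lost its call with the replicate block (adjusted p = 0.0643). Fhl1, a LIM-domain protein of muscle and stroma, had 11.3, 11.3 and 14.1 FPKM in B0 and 3.80, 3.25 and 4.83 in BA50, so that its mean was 12.2 ± 1.61 and 3.96 ± 0.802 FPKM (SD, n = 3). Its log2 change was -1.42 with a standard error of 0.22 (limma adjusted p = 0.0209, with the replicate block 0.0503). B0 samples were close together for this gene, unlike for Cfd and Retn. Cdo1, which degrades cysteine, had 12.8, 19.0 and 9.71 FPKM in B0 and 3.73, 4.08 and 5.69 in BA50. Orm1, an acute-phase plasma protein, had 1.88 to 2.77 FPKM in B0 and 0.21 to 0.72 in BA50. Hoxa9, a body-patterning transcription factor, had 1.51, 1.65 and 1.08 FPKM against 0.47, 0.40 and 0.55, and the capillary and epithelial carbonic anhydrase gene Car4 had 1.31 to 3.84 against 0.16 to 0.56. Each of these 4 genes had a limma adjusted p of 0.0466, with the replicate block 0.0503 to 0.102.

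In 11 of the 14 lower genes every A0, A50 and BA10 sample was also below every B0 sample. The exceptions were Elf3, the provider gene model and Fhl1, the last with 8.28 to 12.8 FPKM in A0 and 5.86 to 8.27 in BA10. The mean of Cfd was 0.713 FPKM in A0, 0.143 in A50 and 3.44 in BA10, and that of Cdo1 was 5.35, 4.89 and 4.75. The high values of Cfd and Cdo1 were thus those of the B0 group, as the plot of called genes shows. BA10 and BA50 were both set against the same 3 B0 samples. The only gene called higher was a provider gene model with no symbol, with 9.20, 12.2 and 10.0 FPKM in B0, 17.3, 28.0 and 24.8 in BA50 and 17.5 to 21.1 in A0 (log2 change 1.07, limma adjusted p = 0.0466, with the replicate block 0.0503).

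**Figure D1:**
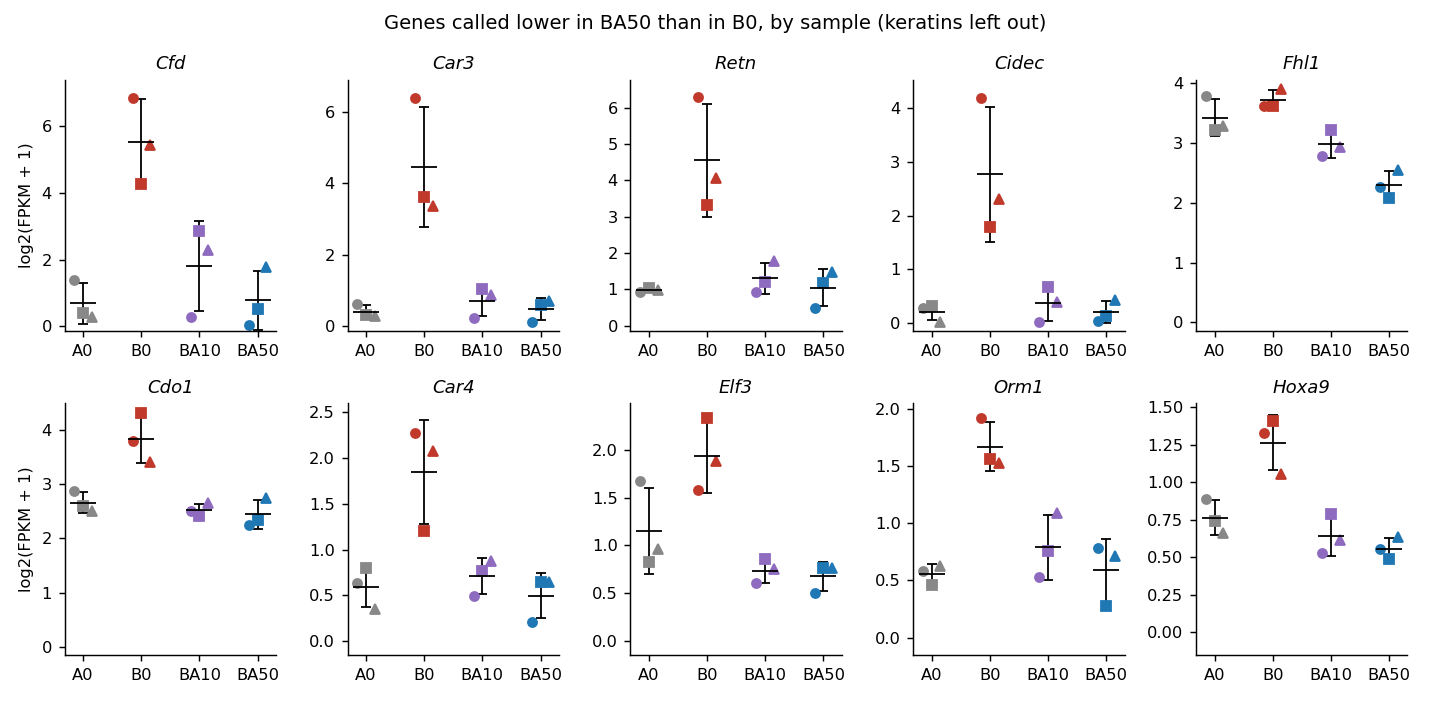
The panels plot log2(FPKM + 1) of 10 genes called lower in BA50 than in B0 in each sample of A0, B0, BA10 and BA50, with circles, squares and triangles for samples 1, 2 and 3, and bars for the mean and SD (n = 3). The B0 samples stand above BA50 in every panel, and the first B0 sample is highest for Cfd, Car3, Retn and Cidec.

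Among genes with a symbol, groups that did not overlap and an unadjusted p under 0.05, the 15 with the largest positive log2 changes were taken by rule, and none of them was called. The second BA50 sample had the highest value in all 15. Oxct2a and Oxct2b are testis forms of the enzyme that lets mitochondria use ketone bodies. Oxct2a had 4.39, 7.11 and 7.96 FPKM in B0 and 13.6, 32.7 and 18.2 in BA50 (means 6.49 ± 1.86 and 21.5 ± 9.97, SD, n = 3), a log2 change of 1.53 with a standard error of 0.37 (limma adjusted p = 0.0963). Oxct2b had 6.65, 9.29 and 8.99 FPKM against 18.6, 38.3 and 20.7 (log2 change 1.47). Their transcripts were identical in 97.98% of 1735 aligned bases, so reads may be divided between them and the separate levels are uncertain.

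Spata32, a spermatogenesis-associated protein, had 5.25, 7.32 and 6.47 FPKM in B0 and 12.8, 29.2 and 15.9 in BA50 (log2 change 1.39, limma adjusted p = 0.0963). Fscn3, the testis form of the actin bundler fascin, had 8.11, 11 and 10 FPKM against 20.6, 44.7 and 21.7. Acte1, an actin-like gene, had 8.41, 10.5 and 9.71 FPKM against 23.6, 37.8 and 18.3. The rule required groups that did not overlap. In Spata32, Fscn3 and Acte1 the BA50 samples spread more widely than the B0 samples. Ubqlnl, a ubiquilin-like gene, had 10.99 to 18.3 FPKM in B0 and 30.1 to 66.4 in BA50, and Lmntd1, a lamin-tail gene, had 0.56 to 3.96 and 4.51 to 13.2. Prm2, a sperm protamine, was on the same list at a log2 change of 1.56 (limma adjusted p = 0.0967). The others named by the rule were Gm5901, Gm38958, LOC100862468, 4930544D05Rik, Cstl1 and Tlcd4, with log2 changes of 1.33 to 1.49, and Haspin.

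Haspin, a kinase that marks histone H3 in dividing and haploid germ cells, was under 1 FPKM in every B0 sample and passed the filter through BA50 alone, so its place among the 15 is not independent of the filter. It had 0.31, 0.49 and 0.15 FPKM in B0 and 1.30, 38.2 and 31.0 in BA50 (log2 change 3.44 with a standard error of 1.11, limma adjusted p = 0.114). Single samples of other groups were high too, at 26.2 FPKM in an A10 sample (10 μg/mL AOS without busulfan) and 17.98 in a BA10 sample. The A50 samples had 0.37 to 1.57 FPKM and the A0 samples 3.98 to 15.6.

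Promoters of the 15 genes were read because many spermatid genes are known to be switched on by CREM, a factor that binds TGACGTCA or its core TGACG. RefSeq promoters (GRCm38.p6, 250 bases before to 50 after the start) were found for 12 of the 15 genes. On either strand, the full motif was in 0 of the 12 and the core outside a full motif was in 5 (41.7%), beside 21.7% of 27025 genes with a promoter in the table. Oxct2a and Oxct2b, a paralogous pair, are both among the 5, so the 5 are not independent of one another. The TATA letters TATAAA were in 2 of the 12 (16.7%, beside 15.7% of all genes) and the E-box letters CACGTG in 1 (8.33%, beside 8.09%). Of the 15 genes with the largest negative log2 changes, 11 had a promoter. The core was in 1 (9.09%, beside 21.7%), the full motif in 1 (9.09%, beside 2.03%) and TATAAA in 3 (27.3%, beside 15.7%). These shares stand beside all genes with a promoter, not testis genes alone, and were not tested. The promoters of the paralogous pair and of Spata32 are printed to show where the core lies, in capitals as TGACG or, where it is on the other strand, CGTCA. They are Oxct2a at chr4:123323630-123323929 (minus strand), Oxct2b at chr4:123115998-123116297 (plus strand) and Spata32 at chr11:103218383-103218682 (minus strand), each 5′ to 3′.
Oxct2a: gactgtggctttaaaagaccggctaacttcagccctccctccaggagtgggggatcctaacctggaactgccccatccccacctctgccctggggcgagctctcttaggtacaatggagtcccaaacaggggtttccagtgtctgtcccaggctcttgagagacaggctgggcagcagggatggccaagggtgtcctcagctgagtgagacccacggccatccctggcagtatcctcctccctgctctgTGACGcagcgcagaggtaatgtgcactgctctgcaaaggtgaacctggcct
Oxct2b: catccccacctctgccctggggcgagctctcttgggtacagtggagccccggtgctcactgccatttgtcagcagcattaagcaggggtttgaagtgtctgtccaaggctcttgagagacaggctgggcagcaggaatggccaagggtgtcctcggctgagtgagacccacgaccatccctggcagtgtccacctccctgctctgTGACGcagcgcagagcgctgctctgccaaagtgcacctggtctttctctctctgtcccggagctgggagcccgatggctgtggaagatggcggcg
Spata32: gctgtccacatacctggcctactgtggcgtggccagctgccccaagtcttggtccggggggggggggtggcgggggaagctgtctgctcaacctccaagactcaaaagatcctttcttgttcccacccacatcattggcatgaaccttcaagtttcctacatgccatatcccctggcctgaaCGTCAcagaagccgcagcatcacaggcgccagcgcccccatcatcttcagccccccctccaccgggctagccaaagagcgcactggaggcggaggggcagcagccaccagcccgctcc
In the paralogous pair the core stands in a stretch of identical letters, a description that says nothing of binding.

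The lists of the later germ cell stages had mostly positive log2 changes and 0 members called. Of 40 genes of the sperm tail, fibrous sheath and motility, 39 were tested and all 39 had a positive log2 change. In 23 (59.0%, beside 11.4% of all genes) BA50 lay all above B0. The median log2 change was 0.71 beside -0.05 for all genes. Spem1, needed to shape the sperm head and neck, had 53.5, 63.5 and 58.8 FPKM in B0 and 107, 218 and 119 in BA50 (means 58.6 ± 5.00 and 148 ± 61.1, SD, n = 3; log2 change 1.25, limma adjusted p = 0.101). Tssk6, a kinase of late spermatids, had 14.8, 14.7 and 17.2 FPKM against 35.6, 47.5 and 32.8 (log2 change 1.24, adjusted p = 0.0997 by limma). Akap4, the main fibrous sheath scaffold, had 95.9, 135 and 107 FPKM against 168, 325 and 188, and Odf2, an outer dense fibre protein, had 356, 429 and 275 against 501, 836 and 622. The third B0 sample was lowest for Odf2 and the second BA50 sample highest for all 4 genes. Without the first BA50 sample 9 of the 39 genes were called higher, beside 5.04% of all genes, Spem1 and Odf2 among them. Without the second BA50 sample the list median was 0.51.

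Of 23 acrosome genes all 23 were tested, all had a positive log2 change and 6 (26.1%, beside 11.4% of all genes) had BA50 all above B0. The median was 0.63 (0.49 without the second BA50 sample). Acr, the protease acrosin, had 40.1, 45.4 and 24.5 FPKM in B0 and 46.5, 76.7 and 66.8 in BA50, and Sppl2c, an intramembrane protease of spermatids, had 13.7 to 16.9 against 24.5 to 51.0 (limma adjusted p = 0.134 and 0.111). Acrv1 overlapped, at 65.8, 66.7 and 40.3 FPKM against 63.0, 104 and 83.4. Of the 16 spermatid regulators tested, 7 (43.8%) were all above, 1 all below and the median was 0.63 (0.44 without the second BA50 sample). Ybx2, which stores spermatid mRNA, had 249, 267 and 150 FPKM against 295, 523 and 445, while Crem itself overlapped at 28.9, 35.3 and 21.7 against 30.0, 49.7 and 39.6 (limma adjusted p = 0.107 and 0.256). Of 9 testis histone genes tested 6 (66.7%) were all above and 1 all below (median 0.73, and 0.48 without the second BA50 sample). H1f7, the linker histone of spermatids, had 37.1 to 40.9 FPKM in B0 and 58.4 to 110 in BA50. In the fit without the first BA50 sample 2 acrosome genes, 6 spermatid regulators and 1 testis histone gene were called higher, beside 5.04% of all genes.

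**Figure D2:**
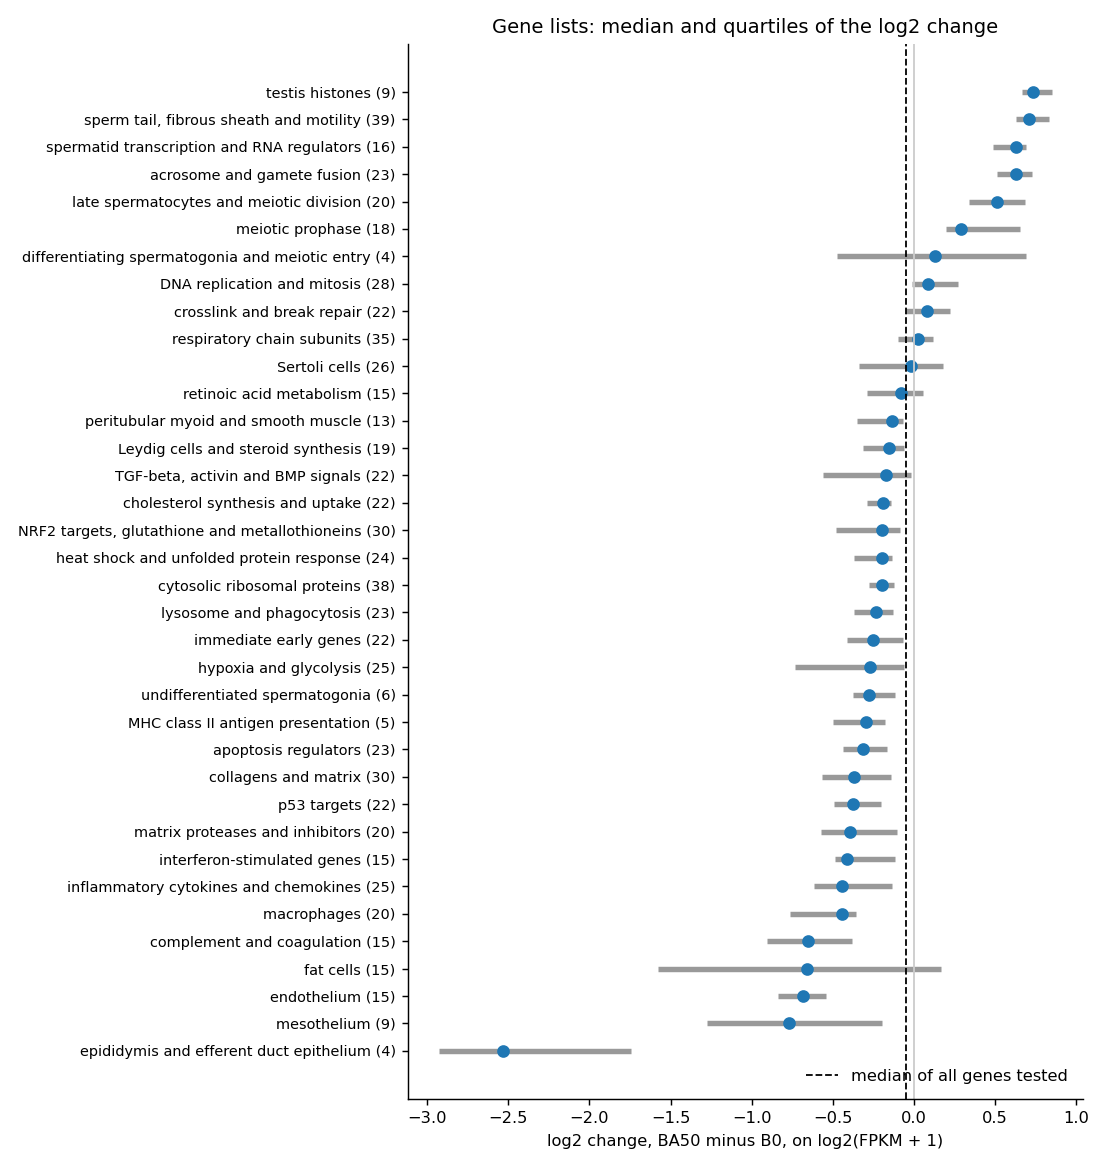
Each point is the median log2 change (BA50 minus B0, on log2(FPKM + 1)) of the tested members of a list and each bar spans the quartiles, with the number tested in brackets and a dashed line at the median of all genes tested (-0.05). Lists with under 4 tested members are left out. Lists of late germ cells lie to the right, and endothelium, complement, fat and duct lists to the left.

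Meiotic lists were also mostly positive. Of 20 late spermatocyte genes all 20 were positive, 9 (45.0%, beside 11.4% of all genes) were all above and the median was 0.51. Of 18 meiotic prophase genes tested 17 were positive, 3 (16.7%) were all above and the median was 0.29. Ccna1, the meiotic cyclin, had 16.3, 21.8 and 12.1 FPKM in B0 and 18.8, 33.2 and 37.2 in BA50, and the sperm glycolysis enzyme gene Pgk2 had 130, 169 and 114 against 190, 298 and 215 (limma adjusted p = 0.133 and 0.147). The synaptonemal complex genes Sycp1 (6.99, 14.9 and 10.8 FPKM against 7.61, 20.01 and 11.4) and Sycp3 (9.19, 13.4 and 9.86 against 8.25, 14.4 and 12.9) overlapped between groups, far below the Sycp3 mean of 113 FPKM in A0. Without the first BA50 sample 6 late spermatocyte and 3 prophase genes were called higher, beside 5.04% of all genes. Without the second BA50 sample the medians of these lists were 0.47 and 0.25.

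Spermatogonial genes were few. Of 14 genes of undifferentiated spermatogonia 6 were tested, 5 had a negative log2 change, 3 (50%, beside 13.9% of all genes) were all below and 0 were called. Cdh1, 1 of the 3, passed the filter through B0 alone, the group in which it was high, so its place there is not independent of the filter. Zbtb16, a stem cell transcription factor, had 2.24, 2.14 and 2.73 FPKM in B0 and 2.26, 1.00 and 1.63 in BA50, and Gfra1, the receptor subunit for GDNF, had 0.74, 2.13 and 1.64 against 0.88, 3.23 and 1.85. For Zbtb16 and Gfra1 the groups overlapped. The adhesion gene Cdh1, shared with epithelia, had 2.04, 12.6 and 4.93 FPKM against 0.43, 0.68 and 0.88 (limma adjusted p = 0.0954), with its highest value in the second B0 sample as for Elf3 and Crisp1. Of 12 genes of differentiating spermatogonia and meiotic entry 4 were tested, 2 positive and 2 negative. In this list 1 was all above, 2 were all below and 0 were called (median 0.13). Kit, a receptor of differentiating spermatogonia that Leydig and mast cells also carry, had 10.2, 10.7 and 9.82 FPKM against 7.88, 2.91 and 8.02. Dmrtb1, which times meiotic entry, had 74.6, 91.1 and 46.1 against 78.5, 127 and 123.

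Sertoli genes were divided in sign. Of 26 Sertoli genes tested 13 were positive and 13 negative (median -0.02), with 1 all above and 3 all below (11.5%, under the share of all genes). Gdnf, the growth factor of spermatogonial stem cells, was the 1 above, at 5.31, 5.73 and 5.57 FPKM in B0 and 10.7, 10.4 and 6.80 in BA50 (log2 change 0.63, limma adjusted p = 0.0997). Trf, the iron carrier transferrin, had 261, 124 and 168 FPKM against 74.8, 92.0 and 100 (log2 change -0.98, limma adjusted p = 0.0795). Of 19 Leydig and steroid genes 16 were negative, 3 (15.8%, near the 13.9% of all genes) were all below, 0 all above and 0 called (median -0.15). Star, which brings cholesterol into the mitochondrion, had 237, 356 and 352 FPKM against 258, 332 and 276, and Cyp11a1, the enzyme that opens steroid synthesis, had 365, 324 and 449 against 388, 233 and 319. Insl3 was 318, 361 and 840 FPKM against 477, 691 and 755, so all 3 steroid cell genes overlapped. Of 22 genes of cholesterol synthesis and uptake none had groups apart (median -0.19, smallest limma adjusted p = 0.281). Among 13 peritubular and smooth muscle genes 2 (15.4%) were all below and 1 (7.69%) all above. The desmin gene Des had 24.9, 13.6 and 14.9 FPKM against 13.4, 7.58 and 9.37.

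Endothelial genes were all on the negative side. All 15 were tested, all 15 had a negative log2 change and 9 (60.0%, beside 13.9% of all genes) had BA50 all below B0. The median was -0.69 (-0.45 without the second BA50 sample), with 0 called with every sample. Pecam1, the junction protein of endothelial cells, had 26.0, 23.4 and 19.96 FPKM in B0 and 17.7, 6.27 and 11.9 in BA50 (means 23.1 ± 3.02 and 11.9 ± 5.70, SD, n = 3), a log2 change of -0.99 with a standard error of 0.26 (limma adjusted p = 0.0967). Kdr, the main receptor for VEGF, had 7.14, 9.90 and 10.0 FPKM against 6.72, 4.2 and 4.86, and Ly6c1, a capillary surface protein, had 170, 154 and 129 against 111, 40.3 and 60.3 (limma adjusted p = 0.0984 and 0.111). Cdh5, the endothelial cadherin, overlapped at 39.4, 34.0 and 32.7 FPKM against 33.4, 15.1 and 28.7. The lymphatic genes Lyve1 and Ccl21a were among the 15 with the largest negative log2 changes, Lyve1 with 19.0, 21.7 and 26.4 FPKM against 6.91, 0.35 and 8.51, and Ccl21a with 7.37, 27.0 and 133 against 0.00, 1.78 and 5.42 (limma adjusted p = 0.0984 and 0.107). Ccl21a has near-identical copies in the mouse genome and its level is uncertain. The second BA50 sample was lowest for Pecam1, Kdr, Ly6c1, Cdh5 and Lyve1. Without the first BA50 sample 9 of the 15 endothelial genes were called lower, beside 3.92% of all genes. Pecam1, Kdr and Ly6c1 were among the 9 (adjusted p = 0.0353, 0.0374 and 0.0391 by limma).

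**Figure D3:**
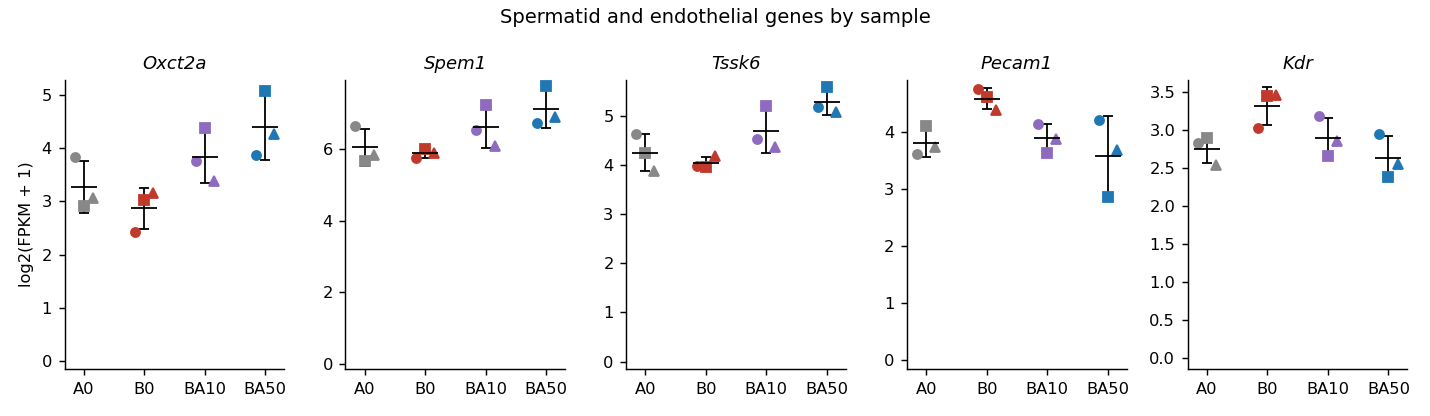
The panels plot log2(FPKM + 1) of 5 genes in each sample of A0, B0, BA10 and BA50, with circles, squares and triangles for samples 1, 2 and 3, and bars for the mean and SD (n = 3). Oxct2a, Spem1 and Tssk6 are higher in every BA50 sample than in B0, and Pecam1 and Kdr are lower, with the second BA50 sample at the extreme for Oxct2a, Spem1, Tssk6, Pecam1 and Kdr.

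Matrix genes were mostly negative, with shares of all below near the background. Of 30 collagen and matrix genes 26 were negative and 5 (16.7%, beside 13.9% of all genes) were all below (median -0.37), and without the second BA50 sample the median was 0.01. Col1a1 had 226, 70.2 and 128 FPKM in B0 and 161, 35.2 and 150 in BA50, and Col3a1 had 516, 182 and 367 against 393, 64.2 and 393. In both collagens the second sample was lowest within its own group. Lum, a collagen-binding proteoglycan, had 15.02, 18.4 and 15.6 FPKM against 5.60, 0.60 and 8 (limma adjusted p = 0.120). Of 20 matrix protease genes tested 2 (10%) were all below and 1 all above (median -0.39, and -0.10 without that sample). Mmp2, a gelatinase, had 168, 103 and 138 FPKM against 111, 23.3 and 164.

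Immune genes had mostly negative log2 changes and 0 calls. Of 20 macrophage genes 18 were negative and 2 were all below (10%, beside 13.9% of all genes; median -0.45), with the tissue macrophage gene Csf1r at 9.87, 7.71 and 7.44 FPKM in B0 and 8.41, 2.71 and 7.47 in BA50. The microglia and macrophage gene Aif1, which germ cells also express, was all above, at 62.7 to 75.7 FPKM in B0 and 85.7 to 158 in BA50. Of 25 inflammatory genes tested 22 were negative and 6 (24.0%) were all below (median -0.45). Csf3, the granulocyte growth factor, had 7.25, 11.8 and 11.5 FPKM against 4.31, 2.2 and 6.21, Il6 had 18.6, 29.0 and 23.4 against 14.98, 13.5 and 18.2, and Ptgs2, the inducible prostaglandin enzyme, had 53.8, 94.3 and 68.6 against 30.4, 28.2 and 49.9 (limma adjusted p = 0.106, 0.234 and 0.167). All 3 were lowest in the second BA50 sample. Of 15 complement genes tested 4 (26.7%) were all below (median -0.65). C4b had 9.78, 8.78 and 17.1 FPKM against 4.60, 1.49 and 6.99, while C3 overlapped. All 15 interferon genes tested were negative, 2 of them all below (13.3%, near the background; median -0.41), with Irf1 at 19.1 to 20.6 FPKM against 10.1 to 15.5 (limma adjusted p = 0.0997). Of 5 genes of MHC class II tested 1 was all below, and 2 of 17 lymphocyte and mast cell genes were tested. Without the second BA50 sample the medians were nearer 0, at -0.13 for macrophages, -0.20 for inflammatory genes, -0.30 for complement, -0.10 for interferon genes and -0.16 for MHC class II. In the fit without the first BA50 sample 1 macrophage and 1 complement gene were called lower, beside 3.92% of all genes. That fit called 0 inflammatory, interferon and MHC class II genes.

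Stress pathways of the drug were examined because busulfan crosslinks DNA. The 22 p53 targets were all tested, all had a negative log2 change and 10 (45.5%, beside 13.9% of all genes) were all below. The list median was -0.38 (-0.29 without the second BA50 sample) and 0 were called. Perp, a p53 target at cell junctions, had 5.55, 14.4 and 7.31 FPKM in B0 and 1.13, 3.57 and 3.84 in BA50 (limma adjusted p = 0.115). The second B0 sample was highest for Perp, as for Elf3 and Crisp1. Cdkn1a, the cell cycle brake p21, was uneven, with 198, 102 and 69.0 FPKM against 177, 59.3 and 9.19, and Mdm2, the p53 ubiquitin ligase, had 50.1, 50.4 and 44.0 against 43.9, 43.0 and 44.2. Both genes overlapped between the groups. Of 23 apoptosis genes tested 18 were negative, 9 (39.1%) were all below and 2 (8.70%) all above (median -0.31, and -0.19 without the second BA50 sample). Bcl2 had 1.07 to 1.24 FPKM against 0.70 to 1.13, and Bax, which opens mitochondria in apoptosis, had 82.5, 60.8 and 68.9 against 77.7, 57.3 and 63.8. Without the first BA50 sample 5 of the 22 p53 targets and 3 of the 23 apoptosis genes were called lower, beside 3.92% of all genes. Of 22 crosslink repair genes tested 4 (18.2%, beside 11.4% of all genes) were all above and 0 below (median 0.08). Slx4, a nuclease scaffold, had 6.19 to 7.5 FPKM against 8.29 to 12.2.

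Antioxidant and stress lists had mostly negative log2 changes and 0 calls. Of 30 NRF2, glutathione and metallothionein genes 27 were negative, 5 (16.7%, near the 13.9% of all genes) were all below and 1 all above (median -0.19). Gpx4, the lipid peroxide reductase that also builds the sperm midpiece, was the 1 above, at 452, 420 and 384 FPKM in B0 and 511, 723 and 567 in BA50 (log2 change 0.50, limma adjusted p = 0.114). Nqo1 had 42.3, 57.6 and 41.9 FPKM against 35.3, 32.5 and 29.2, and Gclc, the enzyme that limits glutathione synthesis, had 32.6, 43.2 and 32.3 against 30.4, 22.9 and 22.4. Of 24 heat shock and unfolded protein genes 3 (12.5%, also near that share) were all below and 1 all above (median -0.20). Of 25 hypoxia and glycolysis genes 21 were negative (median -0.27, and -0.14 without the second BA50 sample). Only 1 (4.0%) was all below and 2 (8.0%) were all above, both under the shares of all genes (13.9% and 11.4%). In Vegfa (156, 192 and 126 FPKM against 65.1, 45.9 and 178) and Ndrg1 (113, 143 and 80.5 against 36.6, 21.9 and 147) the third BA50 sample was above 2 of the 3 B0 samples or all of them, and the other BA50 samples were below all. Of 22 immediate early genes tested 6 (27.3%) were all below (median -0.25, and -0.12 without the second BA50 sample). Egr1 had 52.8 to 65.8 FPKM against 24.8 to 42.3 and Fos had 11.2 to 12.7 against 8.42 to 11.9.

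Lists of general cell functions had small medians of either sign. Of 28 replication and mitosis genes 6 (21.4%, beside 11.4% of all genes) were all above (median 0.09). Ccnb2 had 34.5, 37.4 and 22.3 FPKM against 39.7, 52.0 and 49.1, while the replication licensing gene Mcm2 overlapped at 4.37 to 4.76 against 3.61 to 5.37. Of 35 respiratory chain genes 3 (8.57%) were all above and 1 (2.86%) all below (median 0.02, and -0.07 after quantile normalization). Uqcrc1, a complex III subunit, had 84.2, 75.4 and 72.2 FPKM against 96.1, 102 and 97.3, a log2 change of 0.35 with a standard error of 0.08 (limma adjusted p = 0.0963). Of 38 ribosomal protein genes 36 were negative and 2 (5.26%) were all below (median -0.20, and -0.03 without the second BA50 sample). Of 22 genes of TGF-beta, activin and BMP signals 5 were all below and 1 all above. The counts were 3 and 1 of 15 retinoic acid genes, and 4 and 0 of 23 lysosome genes. Across these lists 17.4% to 22.7% were all below and 0% to 6.67% all above, beside 13.9% and 11.4% of all genes. Their medians were -0.17, -0.08 and -0.23, and -0.09, -0.03 and -0.13 without the second BA50 sample.

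The plot of lists by sample shows how far samples differed within BA50. In the second BA50 sample the sperm tail list stood at 1.12 and the endothelial list at -1.41 relative to the B0 mean (medians over genes of log2(FPKM + 1)). The values were 0.72 and -0.54 in BA50 sample 3 and 0.32 and -0.36 in BA50 sample 1. The B0 samples themselves ranged from -0.34 to 0.27 for the sperm tail list and from -0.11 to 0.06 for the endothelial list. FPKM values are relative to the whole sample, and the part of a changed cell mixture was not tested. Between same-numbered samples the sperm tail median was 0.25, 0.77 and 1.00 for numbers 1 to 3, and the endothelial median was -0.31, -1.19 and -0.53.

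**Figure D4:**
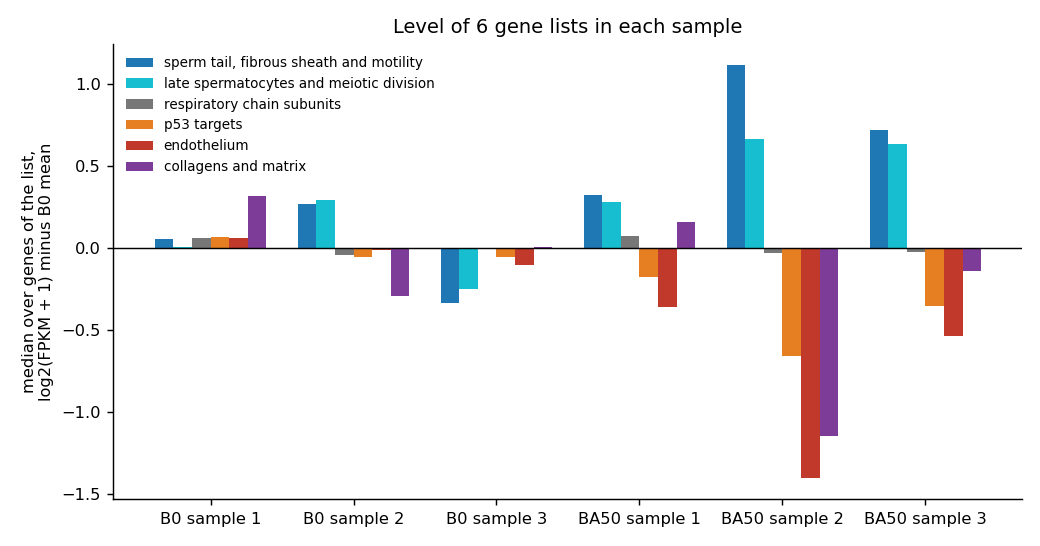
Each bar is the median, over the tested genes of a list, of log2(FPKM + 1) minus the mean of the 3 B0 samples, for 6 lists in the 3 B0 and 3 BA50 samples. The second BA50 sample has the tallest sperm tail bar (1.12) and the deepest endothelial bar (-1.41), and respiratory chain genes stay near 0.

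The AOS change after busulfan was then set against the change without busulfan. In 0 of 14772 genes (0%) did BA50 minus B0 differ from A50 minus A0 in limma's interaction test (smallest adjusted p = 0.210), and 929 genes had an unadjusted p under 0.05. The median log2 changes of lists stood side by side at 0.71 after and 0.35 without busulfan for the sperm tail, 0.51 and 0.55 for late spermatocytes, 0.29 and 0.34 for meiotic prophase, -0.69 and -0.39 for endothelium, -0.38 and -0.20 for p53 targets, and -0.66 and -0.14 for fat cells. These 2 contrasts share no samples. Between BA50 and BA10, 0 genes (0%) differed (smallest limma adjusted p = 0.853, with 728 genes at an unadjusted p under 0.05). Against the same B0 samples, BA10 had a median of 0.47 for the sperm tail, -0.55 for endothelium, -0.23 for p53 targets and -0.78 for fat cells.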

How the data were processed

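RNA-seq values of 18 samples in 6 groups of 3 were used, with groups and replicate numbers from the labels. The authors made poly(A) libraries from cultured testes and deposited the values of 22657 genes as FPKM. The submitters' processing notes name HISAT, Bowtie2, RSEM and the build GRCm38.p5, while the supplementary methods describe SOAPaligner and RPKM. Read numbers are unknown, so precision was judged from the 3 samples of a group. A moderated linear model was fitted to the FPKM with limma 3.58.1 (eBayes with trend, R 4.3.3) on log2(FPKM + 1), a scale that understates changes of low genes, with 12 residual degrees of freedom, 1 coefficient per group and Benjamini-Hochberg adjustment over 14772 genes. Genes counted as apart had all 3 BA50 values above, or all below, the 3 B0 values.

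Same-numbered B0 and BA50 samples deviated together from their group means (r = 0.555, 0.432 and 0.117 across genes), although BA50 sample 3 had a higher r with B0 sample 2 (0.188) than with its own number. The blocked fit is given where it changed a call. The pairing comes from the replicate numbers in the labels. Of 853 entries in 39 gene lists, 843 were matched to genes. The comparison, its members and the lists were chosen with earlier results of these data known. Genes were named by rule: all called genes, the 15 largest positive and 15 largest negative log2 changes with groups apart and unadjusted p under 0.05, and in each list the first 3 tested and those with the largest changes. Promoters came from RefSeq (GRCm38.p6) and transcripts from GENCODE vM21. Python 3.11.15, pandas 2.3.3, SciPy 1.17.1, Biopython 1.88 and matplotlib 3.10.9 were used. The design text gives AOS in mg/kg body weight, and the labels' μg/mL was used. The A10 group entered the fit only for the spread.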

Additional observations from a re-analysis of the deposited data

Results flagged for a closer look

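In 3 of the named genes the differences with AOS pointed in opposite directions with and without busulfan, with every BA50 sample above B0 and every A50 sample below A0. The difference of the log2 changes was 5.82 for Haspin (limma adjusted p = 0.580), with A0 at 3.98 to 15.6 FPKM and A50 at 0.37 to 1.57. For Uchl1, a ubiquitin hydrolase of spermatogonia, it was 1.31 (limma adjusted p = 0.450), with 57.2, 37.2 and 49.7 FPKM in B0, 93.6, 99.98 and 66.1 in BA50, a mean of 76.0 in A0 and 52.97 in A50. For Mmp11, a matrix protease, it was 1.05 (limma adjusted p = 0.762), with means of 66.5 FPKM in B0, 91.0 in BA50, 73.5 in A0 and 50.1 in A50. The test of the difference was not passed for any of them after adjustment.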

How the results depend on the processing

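The main counts were 1 higher and 14 lower genes in BA50. With the replicate block they were 0 and 4 over all 18 samples, 0 and 0 over the 9 busulfan samples and 0 and 0 over the 6 samples. Fits of the 6 samples or of the 9 busulfan samples alone gave 0 and 0. The limits of the supplementary methods (adjusted p at most 0.001 and a log2 change of at least 1), put on the limma fit, also gave 0 and 0. The study used those limits with another test, DEGseq, which was not run here. These counts therefore cannot be set against those of the study. A pseudocount of 0.1 gave 0 and 6, no filter 3 and 33, a filter at a mean of 5 FPKM 1 and 9, median centring 0 and 13, and eBayes without trend 0 and 13. Leaving out 1 sample gave 0 to 745 higher and 0 to 579 lower genes, the highest without BA50 sample 1 and the lowest without BA50 sample 2. Leaving out A0, A50 and BA10 samples was added after seeing the data and gave 0 to 3 higher and 7 to 11 lower. For the difference with and without busulfan the range was 0 to 1 (1 without B0 sample 1 or 2), and for BA50 against BA10 it was 0. No log2 change of the 38 genes largest or called reversed. The list median kept its sign in every alternative for 33 of 39 lists. The exceptions were undifferentiated and differentiating spermatogonia, Sertoli cells, collagens, lymphocytes and respiratory chain. With 3 samples per group and unknown depth, smaller differences were not resolved, and the cause of these shifts was not tested.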
